A study of Mus musculus with 8 samples.

Results

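The collagens and extracellular matrix genes were described in mouse quadriceps femoris muscle. Members were all genes of the deposited count table whose symbol is a collagen chain name (Col, a type number, the letter a and a chain number), together with Fn1, Sparc, Lox, Loxl1, Loxl2, Postn, Tnc, Fbn1, Eln, Dcn, Lum, Bgn, Timp1, Timp2, Timp3, Mmp2 and Mmp14. This gave 58 of the 14012 genes of the table, 41 collagen chains and 17 other matrix genes. The 4 mice labelled as a skeletal muscle knockout of Grpel1 (Grpel1 skm-/-) were compared with 4 control mice (Grpel1 flox/flox), 1 polyadenylated RNA library per mouse. Grpel1 encodes a nucleotide exchange factor of the mitochondrial HSP70 chaperone. In the knockout line a tamoxifen-inducible Cre under the human skeletal actin promoter removes the floxed Grpel1 in muscle fibres, so the fibroblasts, endothelial cells and other cells of the tissue are not targeted. The labels give no age and no tamoxifen treatment for the controls, so loss of Grpel1 cannot be told apart from exposure to tamoxifen or the presence of Cre.

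The matrix around muscle fibres has 2 main parts, and the members are ordered here by the part they belong to. Each fibre and capillary is wrapped in a basement membrane, a sheet of laminin and type IV collagen networks joined by nidogen and perlecan. Outside it lies interstitial matrix built on fibrils of type I, III and V collagen, with type VI collagen filaments, elastic fibres, proteoglycans and glycoproteins. Interstitial matrix is made mostly by fibroblasts, tendon by tenocytes, and basement membrane by fibres, endothelial cells and fibroblasts together. In bulk RNA, fewer cells of a type cannot be told apart from less RNA per cell.

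The 8 libraries held between 16017565 and 20361144 counts. Count levels are given in CPM, counts per 1000000 counts of a library after TMM scaling, which corrects for a few very abundant genes. TMM factors ran from 0.747 to 0.844 in the control libraries and from 1.19 to 1.33 in those labelled knockout. Grpel1 itself, counted over the whole gene, was at 68.4 ± 3.04 CPM (SD, n = 4) in the controls and 65.3 ± 6.11 CPM (n = 4) in the knockout-labelled libraries, with an adjusted p of 0.487 by edgeR, so its count does not check the labels and the libraries are called by their label. By immunoblot and immunostaining the paper reports less GRPEL1 protein in the quadriceps of its knockout mice, which RNA counts do not measure. Of the defining skeletal muscle genes, 5 of 6 fell and Myh1 rose, with a summed level of 170610 to 220776 CPM in the control libraries, against 56733 to 83623 CPM in those labelled knockout. Fibroblast markers had 4 of 7 lower and 0 higher, with summed levels of 985 to 1399 CPM against 778 to 851 CPM. Gsn made up most of these sums, at a mean of 915 CPM in the controls and 656 CPM in the knockout-labelled libraries. Of the others, Pdgfra at -0.15, Pi16 at -0.89 and Dpp4 at -1.01 on the log2 scale did not pass. All 6 endothelial markers were lower, at 313 to 444 CPM against 219 to 248 CPM. The 3 tenocyte markers summed to 6.79 and 10.6 CPM in controls 1 and 2, to 21.3 and 24.3 CPM in controls 3 and 4, and to 4.17 to 11 CPM in the knockout-labelled libraries. Of them Tnmd fell, and Scx and Mkx did not pass the test. Marker calls and sums are given with TMM scaling only. The part of these cell markers in the results below was not tested beyond the values given.

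The quasi-likelihood test of edgeR was run over all 14012 genes, and a gene was called at a Benjamini-Hochberg adjusted p under 0.01. Of the 58 members, 29 fell, 6 rose and 23 did not pass. Over all genes 44.7% passed, 21.1% lower and 23.6% higher. The members had 43 negative and 15 positive log2 fold changes, with a median of -0.69, beside a median of 0.07 over all genes. The knockout-labelled libraries lay wholly below the controls for 25 members and wholly above them for 6, against 53.4% of all genes without overlap in either direction and 24.4% with the knockout-labelled libraries lower. Among the 46 members with a mean count of at least 50, 26 fell and 6 rose, and among the 12 with fewer counts 3 fell and 0 rose. All members together took 0.414% ± 0.100 (SD, n = 4) of the counts in the controls and 0.318% ± 0.0579 (n = 4) in the knockout-labelled libraries, and these ranges overlapped.

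The scaling sets the level against which these changes are read. With library totals alone the median of all genes moved from 0.07 to 0.73 on the log2 scale, 6 members were called lower and 11 higher, and 90.7% of the calls over all genes were higher, beside 52.7% with TMM. The distance between the median of the members and that of all genes was -0.76 with both scalings. A change of scaling shifts all genes by nearly the same amount, so this distance could hardly move. Under library totals 13 members changed sign, of which Col7a1, Dcn, Mmp2 and Timp2 had been called, and this is repeated beside their values. Leaving aside the alternatives chosen after seeing the data, there were 20, library totals and each library left out included. Col1a1, Col11a1, Col22a1 and Loxl2 were called lower in all 20, and Col4a3 and Col9a1 in each that tested them, since a minimum mean count of 50 left these out. The 4 called higher in all 20 were Col19a1, Col20a1, Col23a1 and Timp1.

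**Figure D1:**
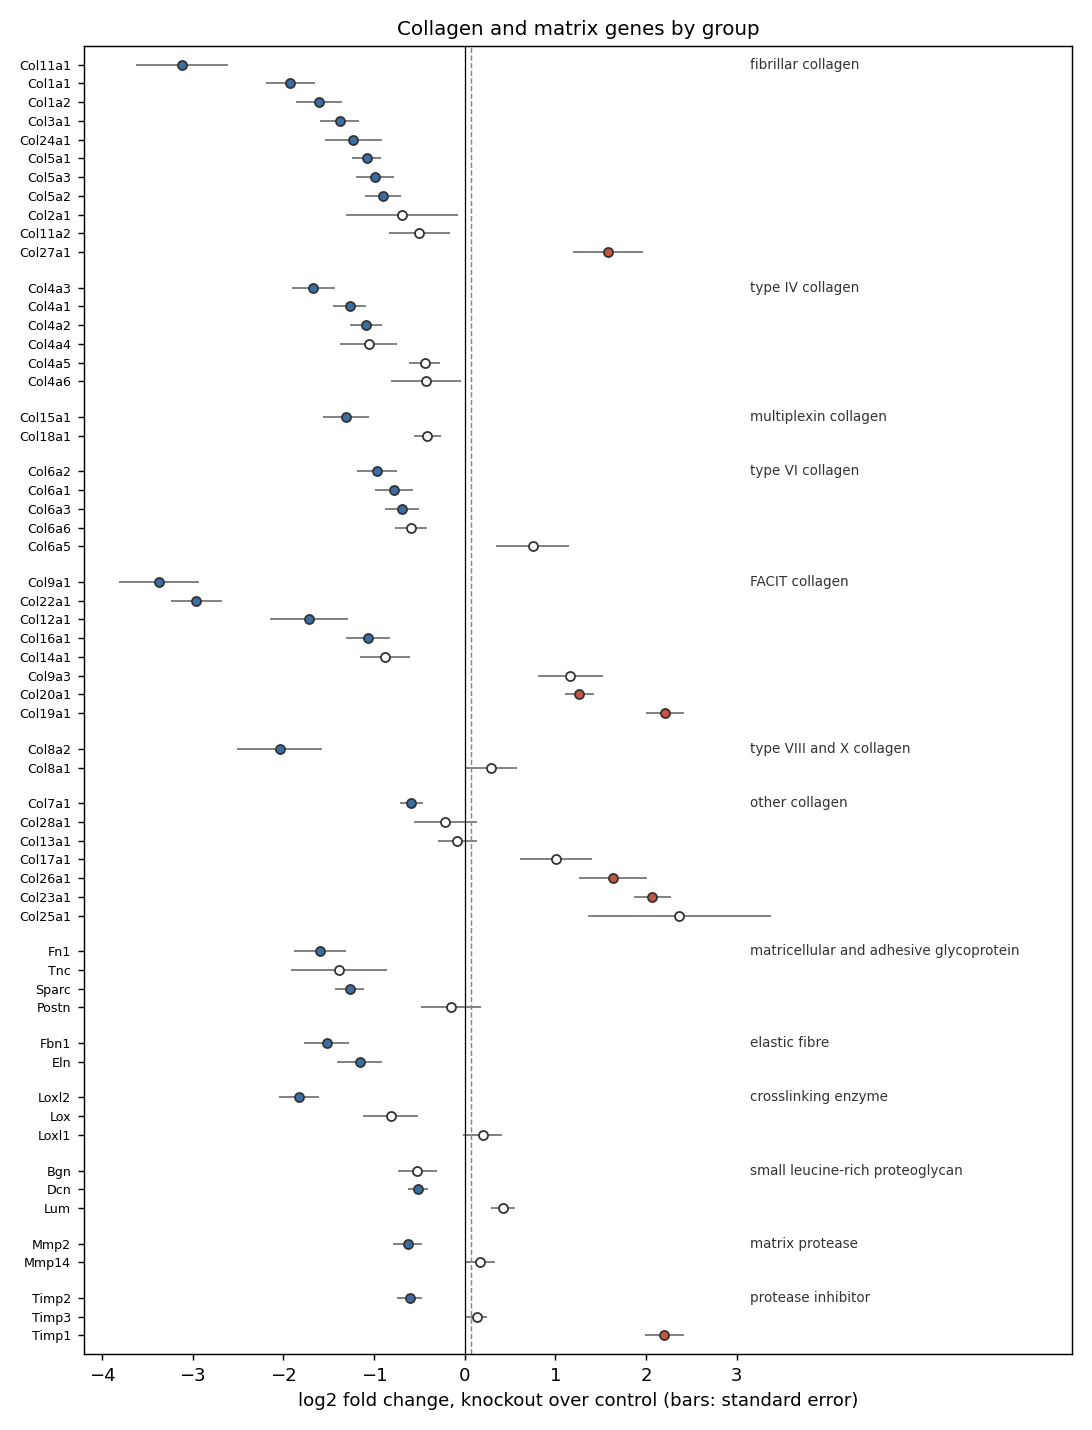
Log2 fold change of each of the 58 members, knockout-labelled over control, with its standard error from the edgeR fit, grouped by the kind of matrix protein. Filled points passed the test (29 blue, lower; 6 red, higher), open points did not, and the dashed line is the median of all genes (0.07), left of which most members lie. With library totals alone 13 points would change side of 0, among them Col7a1, Dcn, Mmp2 and Timp2.

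Fibrillar collagens form the tensile fibrils of interstitial matrix and tendon. Of 11 measured, 8 fell, 1 rose and 2 did not pass, with a median log2 fold change of -1.08. The most abundant per exon length was Col3a1, the chain of type III collagen, at 682, 663, 472 and 911 CPM in the control libraries, against 196, 316, 217 and 319 CPM in those labelled knockout. All 4 knockout-labelled libraries lay below every control, and the log2 fold change was -1.38 ± 0.22 (SE), adjusted p = 0.000387 by edgeR. Col1a2, a chain of type I collagen, had 375, 469, 720 and 712 CPM in the control libraries, against 136, 249, 147 and 215 CPM in those labelled knockout. Its partner Col1a1 had 295, 404, 551 and 501 CPM against 81.9, 169, 79.5 and 131 CPM. Neither chain overlapped between the groups, and both had their highest control levels in libraries 3 and 4. Col1a2 fell by 1.61 ± 0.25 and Col1a1 by 1.92 ± 0.27 on the log2 scale, with adjusted p-values of 0.000388 and 0.000182 by edgeR. An exact permutation test over the 70 assignments of libraries gave p = 0.0286 for Col1a1, Col1a2 and Col3a1, the smallest value it can give.

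Type V collagen chains nucleate fibrils and limit their width. Col5a1 had 71.4, 83.9, 71.2 and 114 CPM in the control libraries, against 36.9, 47.6, 35.2 and 41.7 CPM in those labelled knockout. Col5a2 had 55.1, 66.0, 59.4 and 94.1 CPM against 28.6, 48.8, 31.8 and 37.8 CPM. Col5a3 had 61.2, 109, 92.9 and 133 CPM against 46.1, 62.0, 43.1 and 48.5 CPM. The groups were separate for Col5a1 and Col5a2, and for Col5a3 knockout-labelled library 2 lay just above control 1. The log2 fold changes were -1.08 ± 0.16 for Col5a1, -0.90 ± 0.20 for Col5a2 and -0.99 ± 0.21 for Col5a3, with adjusted p-values of 0.000249, 0.00302 and 0.00239 by edgeR. Col5a2 lost the call when knockout-labelled library 3 was left out.

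The remaining fibrillar chains were expressed at lower levels and varied more. Col11a1, a chain of type XI collagen found in cartilage and tendon, had 1.70, 3.40, 9.95 and 8.0 CPM in the control libraries, against 0.667, 0.687, 0.660 and 0.636 CPM in those labelled knockout. It fell by 3.12 ± 0.50 on the log2 scale, adjusted p = 0.000441 by edgeR, and controls 3 and 4 were again highest. Col11a2, the other type XI chain, had 5.49, 8.18, 20.8 and 16.9 CPM in the control libraries, against 9.59, 8.93, 9.21 and 8.63 CPM in those labelled knockout, so the latter lay within the control range. Its log2 fold change of -0.50 did not pass, at an adjusted p of 0.225 by edgeR, and was 0.17 with library totals alone. Col24a1, a minor fibrillar chain, had 5.90, 15.1, 21.9 and 14.1 CPM in the control libraries, against 7.34, 5.13, 5.90 and 6.0 CPM in those labelled knockout. Control 1 lay within the knockout-labelled range. Col24a1 fell by 1.23 ± 0.31 on the log2 scale, adjusted p = 0.00667 by edgeR, and this call was lost with the omission of any 1 library except control 1. Col2a1, the type II collagen of cartilage, had a mean count of 10.5 and a log2 fold change of -0.70 that did not pass.

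Col27a1 was the fibrillar chain called in the other direction. It encodes a minor fibrillar collagen best known from cartilage, and had 2.18, 2.88, 3.65 and 4.41 CPM in the control libraries, against 15.8, 10.6, 3.96 and 9.22 CPM in those labelled knockout. Knockout-labelled library 3 lay within the control range. Col27a1 rose by 1.58 ± 0.38 on the log2 scale, adjusted p = 0.00513 by edgeR, with an exact permutation p of 0.0571. The call was lost when any 1 library other than control 4 or knockout-labelled 3 was left out.

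Several fibrillar chains were highest in the controls in which the tenocyte markers were highest. With the mean log2 CPM of Tnmd, Scx and Mkx as a covariate, chosen after seeing the data, 2 of 11 fibrillar chains passed, Col1a1 at -1.14 with an adjusted p of 0.00407 by edgeR and Col1a2 at -0.77 with 0.00737. Without controls 3 and 4, also chosen after seeing the data, 5 of 11 fibrillar chains and 3 of 6 type IV chains passed, and of all members 15 fell and 5 rose. Fewer genes were called over the whole table as well, beside 3303 of 14012 higher and 2962 lower as reported. The tenocyte covariate gave 1555 and 1688, and the omission of controls 3 and 4 gave 2213 and 2269. The tenocyte mean itself differed by -1.27 on the log2 scale, and of the controls only control 1 lay within the knockout-labelled range. This covariate and the group label are therefore told apart only in part. Over all members 16 of 58 were higher in both controls 3 and 4 than in both controls 1 and 2, beside 13.3% of all genes.

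**Figure D2:**
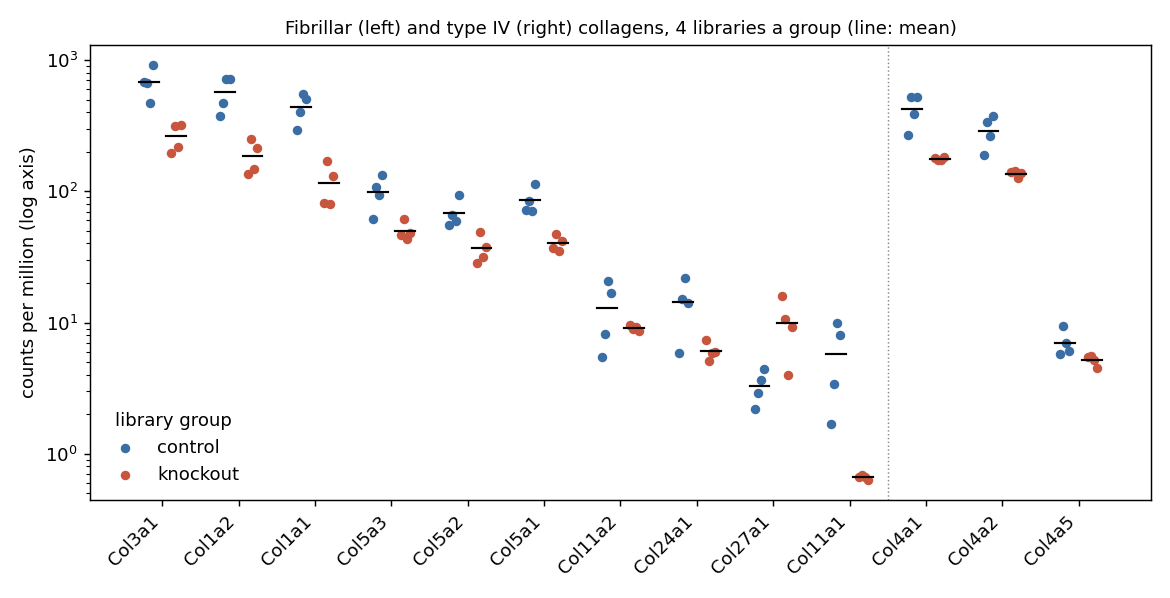
CPM on a log axis of the 10 fibrillar (left of the dotted line) and 3 type IV collagens with a mean count of at least 50, 1 point per library and a line at each group mean. The knockout-labelled points of Col3a1, Col1a2, Col1a1, Col4a1 and Col4a2 lie below all controls, those of Col27a1 mostly above, and those of Col11a2 inside the control range.

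Type IV collagen is the network-forming collagen of basement membranes. Of 6 chains measured, 3 fell, 3 did not pass and none rose, with a median log2 fold change of -1.07. Col4a1 and Col4a2 make up the network present in most tissues. Col4a1 had 268, 521, 387 and 522 CPM in the control libraries, against 178, 173, 172 and 182 CPM in those labelled knockout. Col4a2 had 188, 334, 263 and 373 CPM against 139, 143, 127 and 137 CPM. For both chains the knockout-labelled libraries lay close together and below every control, and control 1 was the lowest control. Col4a1 fell by 1.27 ± 0.18 and Col4a2 by 1.09 ± 0.18 on the log2 scale, with adjusted p-values of 0.00022 and 0.000511 by edgeR. Col4a5, a chain of the minor networks, had 5.74, 9.36, 6.94 and 6.05 CPM against 5.50, 5.54, 5.16 and 4.49 CPM. Its groups did not overlap, yet the log2 fold change of -0.44 ± 0.17 did not pass, at an adjusted p of 0.0421 by edgeR, and was 0.22 with library totals alone.

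The other type IV chains had mean counts under 50. Col4a3, with a mean count of 34.1, fell by 1.67 ± 0.24 on the log2 scale, adjusted p = 0.000178 by edgeR, from 2.75 to 3.73 CPM in the controls to 0.687 to 1.28 CPM in the knockout-labelled libraries. Col4a4, with which it shares a network and a promoter region, had a log2 fold change of -1.06 that did not pass, at an adjusted p of 0.0152 by edgeR, and knockout-labelled library 3 lay within the control range. Col4a6 had a mean count of 10 and a log2 fold change of -0.43, and was 0.22 with library totals alone.

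Levels of fibrillar and type IV collagens were compared within each library, where the scaling cancels. The mean log2 RPKM (CPM per kilobase of exon) of the 11 fibrillar chains minus that of the 6 type IV chains was 1.34, 1.05, 1.89 and 2.11 in the controls and 1.42, 1.92, 1.09 and 1.97 in the knockout-labelled libraries. The ranges overlapped almost wholly, with means of 1.6 ± 0.48 (SD, n = 4) and 1.6 ± 0.42 (n = 4). The difference between the groups was 0.0011 on the log2 scale, and -0.15 when only chains with a mean count of at least 50 were used. It stayed smaller than the control SD with every left-out library and in the other settings run for it. Of these settings, log2 CPM in place of log2 RPKM and pairing by replicate number could not change it. The marker covariates and the omission of controls 3 and 4 together were not among them. Each class on its own was separate between the groups, the fibrillar mean going from 2.46 ± 0.51 to 1.5 ± 0.23 and the type IV mean from 0.86 ± 0.26 to -0.10 ± 0.23. These class means depend on the TMM scaling, which does not cancel for them. With library totals alone the median log2 fold change was -0.42 for either class. The most abundant chains were also compared, chosen after their values were seen. The mean log2 RPKM of Col1a1, Col1a2 and Col3a1 minus that of Col4a1 and Col4a2 was 0.90 ± 0.29 (SD, n = 4) in the controls and 0.38 ± 0.41 (n = 4) in the knockout-labelled libraries, and these ranges overlapped. Col1a1, Col1a2 and Col3a1 made up 30.1% to 34.2% of all member counts in the controls and 18.9% to 25.3% in the knockout-labelled libraries.

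The same classes were set beside the markers of cells that make them. The fibrillar mean minus the mean of the fibroblast markers was -1.65 ± 0.62 (SD, n = 4) on the log2 RPKM scale in the controls and -2.01 ± 0.19 (n = 4) in the knockout-labelled libraries. The type IV mean minus the mean of the endothelial markers was -2.75 ± 0.12 and -2.99 ± 0.27. Both pairs of ranges overlapped, while fibroblast and endothelial marker means were each separate between the groups, at a difference of -0.60 and -0.72.

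**Figure D3:**
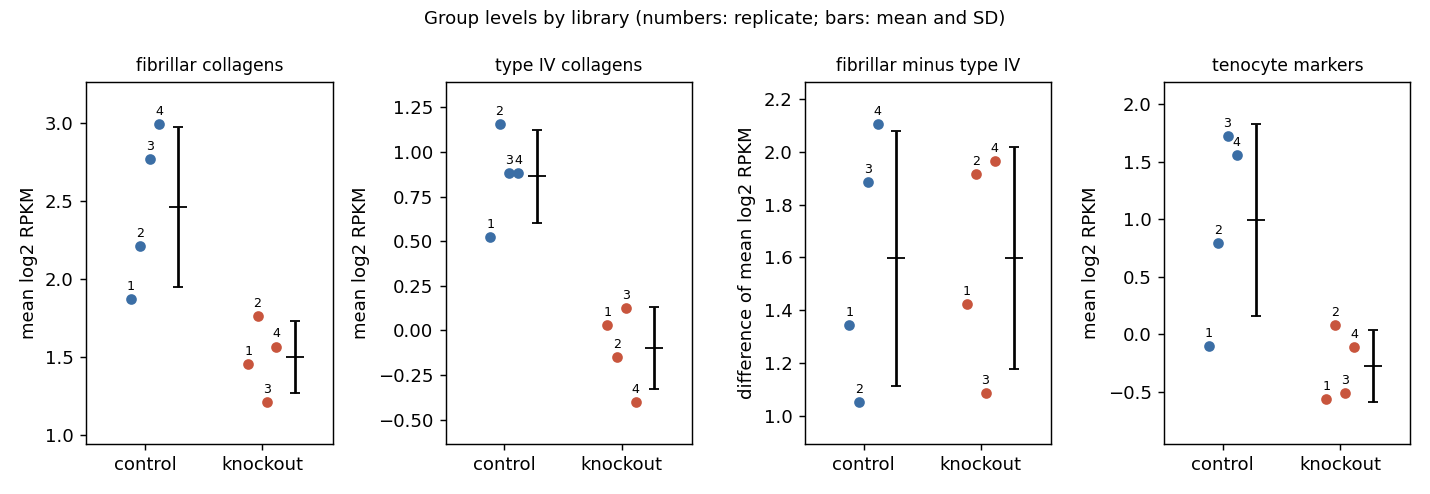
Mean log2 RPKM per library of the 11 fibrillar and 6 type IV collagens, their difference, and the 3 tenocyte markers, with replicate numbers beside the points and bars for the mean and SD of 4 libraries. With TMM scaling each class is lower in the knockout-labelled libraries, the difference between the classes has the same mean in both groups, and the tenocyte markers are highest in controls 3 and 4.

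Ratios between chains of one molecule were also taken within each library, as a description chosen after the levels were seen. The RPKM ratio of Col1a1 to Col1a2 was 0.693, 0.759, 0.674 and 0.619 in the controls and 0.530, 0.599, 0.476 and 0.537 in the knockout-labelled libraries, without overlap. The ratio of Col4a1 to Col4a2 was 1.39, 1.52, 1.43 and 1.36 against 1.24, 1.18, 1.31 and 1.30, also without overlap. The ratio of Col6a1 to Col6a2 lay at 0.875 to 0.941 in control libraries, against 0.955 to 1.07 in those labelled knockout. In these 3 pairs the ratios lay apart between the groups, and whether the chains changed by different factors was not tested. The ranges overlapped for Col5a1 to Col5a2, at 0.944 to 1.02 in control libraries against 0.769 to 1.02, for Col4a3 to Col4a4, at 1.10 to 1.34 against 0.598 to 1.15, and for the different molecules Col3a1 to Col1a1, at 0.912 to 2.46 against 1.99 to 2.90.

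The starts of type IV genes lie head to head in pairs. In the deposited coordinates (GRCm38) the start of Col4a1 (chromosome 8, minus strand, position 11312826) and that of Col4a2 (plus strand, 11312805) are 21 bases apart, and the annotated spans overlap by 22 bases. Those of Col4a3 and Col4a4 on chromosome 1 are 72 bases apart, and those of Col4a5 and Col4a6 on chromosome X 1343 bases apart. Both members of the closest pair fell. The bases between the starts of Col4a3 and Col4a4 are shown because they are all that separates the pair, and the 150 bases before the start of Col1a2, Col3a1 and Col5a1, which fell, and of Col19a1, Col23a1 and Timp1, which rose, are shown as examples of each direction. The sequences are from RefSeq (GRCm38.p6), 5′ to 3′ on the strand of the named gene. Capitals mark CCAAT (a box bound by NF-Y), TATAAA (a core promoter element) and GGGCGG (a GC box, written CCGCCC where it is on the opposite strand).
Col4a4, chr1:82586850-82586920, minus strand: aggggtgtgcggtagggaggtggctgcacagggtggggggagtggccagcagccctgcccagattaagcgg
Col1a2, chr6:4505468-4505617, plus strand: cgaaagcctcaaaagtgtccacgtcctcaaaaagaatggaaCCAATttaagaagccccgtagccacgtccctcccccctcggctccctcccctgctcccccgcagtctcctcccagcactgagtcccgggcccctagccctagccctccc
Col3a1, chr1:45311388-45311537, plus strand: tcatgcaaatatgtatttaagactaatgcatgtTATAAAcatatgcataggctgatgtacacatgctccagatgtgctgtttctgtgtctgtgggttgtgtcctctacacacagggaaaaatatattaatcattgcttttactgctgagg
Col5a1, chr2:27886275-27886424, plus strand: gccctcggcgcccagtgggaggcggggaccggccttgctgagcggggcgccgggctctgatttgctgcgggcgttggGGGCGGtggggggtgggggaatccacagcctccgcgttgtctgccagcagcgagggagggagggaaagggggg
Col19a1, chr1:24587438-24587587, minus strand: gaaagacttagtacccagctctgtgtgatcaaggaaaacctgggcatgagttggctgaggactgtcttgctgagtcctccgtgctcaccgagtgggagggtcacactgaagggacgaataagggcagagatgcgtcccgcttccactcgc
Col23a1, chr11:51289770-51289919, plus strand: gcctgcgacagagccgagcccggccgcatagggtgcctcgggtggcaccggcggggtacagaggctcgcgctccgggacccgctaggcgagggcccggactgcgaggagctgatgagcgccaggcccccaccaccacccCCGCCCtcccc
Timp1, chrX:20870016-20870165, plus strand: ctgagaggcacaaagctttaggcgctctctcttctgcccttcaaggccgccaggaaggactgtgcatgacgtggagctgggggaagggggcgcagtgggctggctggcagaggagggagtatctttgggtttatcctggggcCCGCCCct

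In these sequences CCAAT lies 109 bases before the start of Col1a2, TATAAA 117 bases before that of Col3a1, and a GC box 73 bases before that of Col5a1, 11 before that of Col23a1 and 8 before that of Timp1. The windows shown for Col19a1 and for the Col4a3 and Col4a4 pair hold none of the 3 motifs, and the GC content runs from 37.3% for Col3a1 to 76.7% for Col23a1. Windows of 250 bases before the start were found for 41 of the 58 members, 46 windows in all, and were searched on both strands. GGGCGG was in 28 of the 46 windows, CCAAT in 15 and TATAAA in 7, beside 32.7%, 33.8% and 12.4% of all 32851 windows. The amino acid response motif TGATGNAA was in 0 of the 46, beside 3.45% of all windows. A match is a run of letters and not a measured binding site.

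Multiplexins are basement membrane collagens whose ends release endostatin-like fragments. Col15a1, the chain most abundant around muscle fibres and capillaries, had 41.4, 94.4, 68.6 and 107 CPM in the control libraries, against 27.4, 27.6, 31.7 and 39.2 CPM in those labelled knockout. The groups were separate and it fell by 1.31 ± 0.26 on the log2 scale, adjusted p = 0.00153 by edgeR. Col18a1 had a log2 fold change of -0.42 that did not pass, at an adjusted p of 0.0355 by edgeR, and 0.25 with library totals alone.

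Type VI collagen forms beaded filaments that link the basement membrane to interstitial matrix, and is made in muscle mainly by fibroblasts. Of 5 chains 3 fell and 2 did not pass. Col6a2, the most abundant per exon length, had 84.6, 136, 116 and 184 CPM in the control libraries, against 54.4, 84.1, 59.7 and 68.8 CPM in those labelled knockout. Control 1 and knockout-labelled library 2 nearly met. It fell by 0.97 ± 0.22 on the log2 scale, adjusted p = 0.00365 by edgeR. Col6a1 and Col6a3 fell by 0.78 and 0.69 with adjusted p-values of 0.00922 and 0.00923 by edgeR, close to the threshold, and their groups overlapped. Both lost the call with upper-quartile scaling and when control 2, 3 or 4 or knockout-labelled library 1, 3 or 4 was left out, and Col6a2 lost it without control 2 or knockout-labelled library 1, 3 or 4. Col6a6 at -0.59 and Col6a5 at 0.75 did not pass, and Col6a6 was at 0.063 with library totals alone.

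FACIT collagens sit on the surface of fibrils or at the junctions of tissues, and their log2 fold changes ran from -3.37 to 2.21, the widest range of the member groups. Of 8 measured, 4 fell, 2 rose and 2 did not pass. Col22a1, which marks the myotendinous junction where muscle fibres meet tendon, had 23.3, 58.5, 57.5 and 61.8 CPM in the control libraries, against 7.67, 5.45, 6.60 and 6.16 CPM in those labelled knockout. Control 1 stood below the other controls but well above all 4 knockout-labelled libraries. Col22a1 fell by 2.96 ± 0.28 on the log2 scale, a level 7.77-fold lower, adjusted p = 1.27e-05 by edgeR. With the tenocyte markers as a covariate it was at -2.2, adjusted p = 0.00105 by edgeR. Col12a1, a collagen of tendon and fascia, had 5.98, 9.49, 26.1 and 25.1 CPM in the control libraries, against 4.63, 6.59, 3.96 and 5.21 CPM in those labelled knockout. Its 2 high controls were again 3 and 4, and knockout-labelled library 2 lay above control 1. Col12a1 fell by 1.72 ± 0.43, adjusted p = 0.00593 by edgeR, lost the call without any 1 library except control 1 or 2, and was at 0.060 with the tenocyte markers as a covariate.

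Col16a1, a fibril-associated chain of the pericellular matrix, fell by 1.07 on the log2 scale, adjusted p = 0.00394 by edgeR, and lost the call without control 3 or 4 or knockout-labelled library 1 or 3. Col9a1, a chain of cartilage type IX collagen, had a mean count of 12.1, and fell from 0.756 to 2.5 CPM to 0.119 to 0.167 CPM. Col14a1, a fibril-associated chain of interstitial matrix, had a log2 fold change of -0.88 that did not pass, at an adjusted p of 0.0193 by edgeR. Col19a1 and Col20a1 went the other way. Col19a1, a basement membrane zone collagen studied in muscle differentiation and in nerve, had 3.31, 2.75, 3.29 and 1.45 CPM in the control libraries, against 12.6, 12.3, 12.6 and 12.04 CPM in those labelled knockout. The 4 knockout-labelled values were nearly equal and all above the controls. Col19a1 rose by 2.21 ± 0.20 on the log2 scale, adjusted p = 1.11e-05 by edgeR. Col20a1 rose by 1.26 ± 0.16, from 4.47 to 8.12 CPM to 14.0 to 15.4 CPM, adjusted p = 8.42e-05 by edgeR. Col9a3, another type IX chain, had a mean count of 8.88, separate groups and a log2 fold change of 1.16 that did not pass.

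The type VIII pair, short-chain network collagens of vessels, gave 1 call. Col8a1 had 3.72, 8.58, 5.15 and 8.95 CPM in the control libraries, against 5.46, 7.56, 8.21 and 11.2 CPM in those labelled knockout, with overlapping groups and a log2 fold change of 0.29 that did not pass, at an adjusted p of 0.415 by edgeR. Col8a2, with a mean count of 32.9, fell by 2.04 on the log2 scale, adjusted p = 0.00387 by edgeR, and controls 3 and 4 were its highest libraries at 4.51 and 5.48 CPM. It lost the call without control 3 or 4 or without knockout-labelled library 1, 2 or 3.

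Of the 7 other collagens, 2 rose, 1 fell and 4 did not pass. Col7a1, the anchoring fibril collagen, had 72.8, 52.4, 64.3 and 74.2 CPM in the control libraries, against 48.0, 47.4, 43.2 and 36.7 CPM in those labelled knockout. It fell by 0.59 ± 0.12 on the log2 scale, adjusted p = 0.0023 by edgeR, and was at 0.077 with library totals alone. Col23a1, a transmembrane collagen, had 1.86, 2.81, 2.72 and 2.21 CPM in the control libraries, against 10.8, 13.4, 8.38 and 8.03 CPM in those labelled knockout. The groups were far apart and it rose by 2.07 ± 0.21, adjusted p = 1.83e-05 by edgeR. Col26a1, a short collagen of reproductive tissue in development, had 0.485, 3.27, 1.65 and 1.45 CPM against 4.67, 6.41, 4.58 and 6.0 CPM. It rose by 1.63 ± 0.38, adjusted p = 0.00399 by edgeR, and lost the call without control 3 or 4 or knockout-labelled library 2 or 4. The transmembrane chains Col13a1, Col17a1 and Col25a1, and Col28a1, a collagen of peripheral nerve, had mean counts of 6.38 to 30.6 and did not pass.

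**Figure D4:**
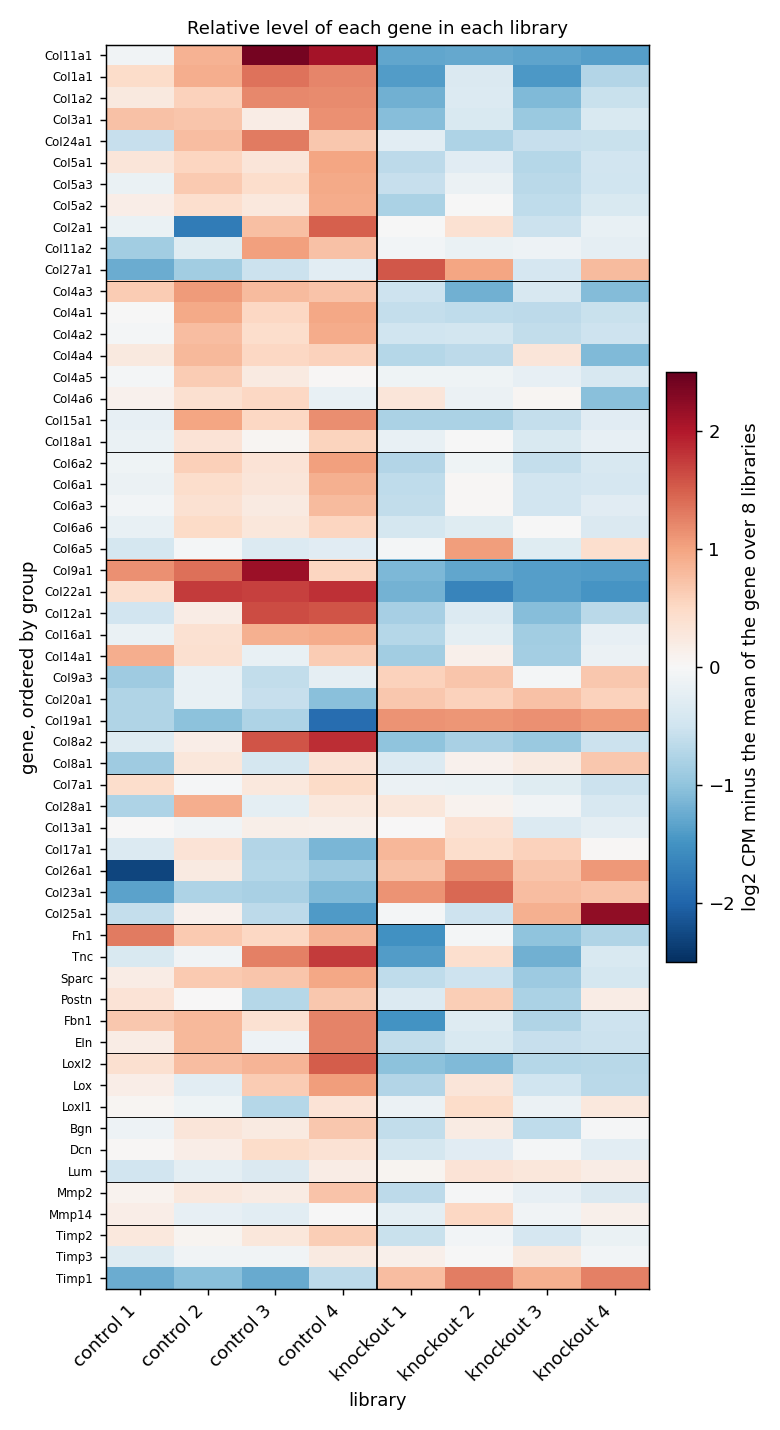
Level of each of the 58 members in each library as log2 CPM minus the mean of that gene over the 8 libraries, ordered by group. Red cells are higher and blue cells lower, so that most rows go from red in the 4 controls to blue in the 4 knockout-labelled libraries, while Col19a1, Col20a1, Col23a1 and Timp1 run the other way and Col11a1, Col12a1 and Col8a2 are highest in controls 3 and 4.

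Matricellular and adhesive glycoproteins tie cells to the matrix. Sparc, which binds collagen and assists its deposition, had the highest level per exon length of all members, at a mean of 238 RPKM in the controls and 98.8 RPKM in the knockout-labelled libraries. It had 455, 631, 650 and 778 CPM in the control libraries, against 258, 278, 212 and 296 CPM in those labelled knockout. The groups were separate and Sparc fell by 1.27 ± 0.16 on the log2 scale, adjusted p = 8.95e-05 by edgeR. Fn1, fibronectin, fell by 1.6 ± 0.28, from 89.6 to 154 CPM to 21.8 to 60.2 CPM, adjusted p = 0.00083 by edgeR. Postn, periostin, a glycoprotein known to be raised in fibrosis, overlapped fully between the groups at 14.2 to 37.5 CPM and 13.5 to 36.1 CPM, and its log2 fold change of -0.15 ± 0.33 did not pass and was 0.52 with library totals alone. By Sirius Red staining the paper reports fibrosis in the quadriceps of its knockout mice, a measure of deposited collagen and not of RNA. Staining and RNA levels were not compared here. Tnc, the tendon and injury protein tenascin-C, had a log2 fold change of -1.39 ± 0.53 that did not pass, at an adjusted p of 0.0434 by edgeR, and its highest controls were 3 and 4.

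Both elastic fibre genes fell. Eln, elastin, had 37.9, 58.3, 30.6 and 78.3 CPM in the control libraries, against 21.6, 25.4, 22.3 and 22.8 CPM in those labelled knockout. Controls varied widely and the knockout-labelled libraries little, without overlap, and Eln fell by 1.16 ± 0.25 on the log2 scale, adjusted p = 0.00265 by edgeR. Fbn1, the fibrillin of the microfibrils on which elastin is laid down, fell by 1.52 ± 0.25, from 59.7 to 108 CPM to 16.1 to 36.6 CPM, adjusted p = 0.000455 by edgeR.

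The lysyl oxidases that crosslink collagen and elastin split. Loxl2, which acts on basement membrane and fibrillar collagen, had 18.7, 24.5, 25.8 and 40.5 CPM in the control libraries, against 6.92, 6.59, 8.59 and 8.74 CPM in those labelled knockout. The groups were far apart and it fell by 1.83 ± 0.22 on the log2 scale, adjusted p = 5.87e-05 by edgeR. Loxl1, an elastic fibre crosslinker and the most abundant of the 3 per exon length, had 22.5, 20.2, 13.4 and 27.7 CPM against 19.8, 30.3, 19.6 and 26.3 CPM. Its groups overlapped, and its log2 fold change of 0.20 ± 0.21 did not pass, at an adjusted p of 0.450 by edgeR. Lox had a log2 fold change of -0.82 ± 0.30 that did not pass, at an adjusted p of 0.039 by edgeR, while DESeq2 gave an adjusted p of 0.00697 for the same gene.

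Small leucine-rich proteoglycans coat fibrils and set their spacing. Dcn, decorin, had 268, 293, 358 and 336 CPM in the control libraries, against 192, 214, 253 and 218 CPM in those labelled knockout. It fell by 0.52 ± 0.11 on the log2 scale without overlap between the groups, adjusted p = 0.00297 by edgeR, but was at 0.15 with library totals alone and lost the call without knockout-labelled library 1, 2 or 4. Bgn, biglycan, had a log2 fold change of -0.52 ± 0.22, and Lum, lumican, of 0.42 ± 0.13, and neither passed, at adjusted p-values of 0.0587 and 0.0204 by edgeR. Bgn was at 0.15 with library totals alone.

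Matrix metalloproteinases cut matrix proteins and TIMPs inhibit them. Mmp2, a gelatinase of fibroblasts, had 49.8, 56.5, 54.2 and 77.3 CPM in the control libraries, against 29.8, 46.4, 40.8 and 36.7 CPM in those labelled knockout. Without overlap between the groups it fell by 0.63 ± 0.16 on the log2 scale, adjusted p = 0.00682 by edgeR, but was at 0.032 with library totals alone and lost the call without control 2, 3 or 4 or knockout-labelled library 1, 3 or 4. Mmp14, the membrane protease that activates the Mmp2 product, had a log2 fold change of 0.17 ± 0.16 that did not pass. The 3 inhibitors differed from each other. Timp1, an inducible inhibitor, had 0.727, 0.851, 0.716 and 1.13 CPM in the control libraries, against 3.25, 4.63, 3.55 and 4.57 CPM in those labelled knockout. All 4 knockout-labelled libraries lay above the controls, and Timp1 rose by 2.2 ± 0.22 on the log2 scale, a level 4.6-fold higher, adjusted p = 1.64e-05 by edgeR. Timp2, the most abundant inhibitor per exon length, had 153, 134, 157 and 195 CPM against 86.8, 123, 95.7 and 114 CPM. The groups were separate and it fell by 0.61 ± 0.14, adjusted p = 0.00343 by edgeR, and was at 0.062 with library totals alone. Timp3, which is bound to the matrix and whose gene lies within the span of Syn3 on the opposite strand, had a log2 fold change of 0.13 ± 0.12 that did not pass. Per exon length Timp1 stayed far below Timp2, at a ratio of 0.0186 to 0.0258 in control libraries, against 0.151 to 0.163 in those labelled knockout.

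Genes that fold, export and cut collagen, or signal through it, were counted from lists, to be read beside 44.7% of all genes called. In the list of collagen folding and modification, 2 of 17 genes rose, 5 fell and 10 did not pass. P4ha1 and P4ha2, the catalytic subunits of prolyl 4-hydroxylase, fell by 1.84 ± 0.12 and 1.07 ± 0.10 on the log2 scale, with adjusted p-values of 1.07e-06 and 8.84e-06 by edgeR. P4ha1 had 101, 109, 127 and 84.9 CPM in the control libraries, against 28.1, 27.5, 31.8 and 30.05 CPM in those labelled knockout, a wide gap. P4hb, the protein disulfide isomerase that is its other subunit, rose by 0.67 ± 0.07, from 166 to 181 CPM to 255 to 294 CPM, and Ppib, a collagen-folding cyclophilin, rose by 0.81 ± 0.10. Serpinh1 (HSP47, the collagen chaperone), Plod1 and P3h3 (hydroxylases of collagen) were the other 3 that fell, at -0.84, -0.55 and -0.63.

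Of 10 genes of procollagen export and processing, 1 rose and 6 fell. Adamts2 and Adamts14 both encode proteases that remove the amino-terminal propeptide of fibrillar procollagens. Adamts2 fell by 0.97 ± 0.12 on the log2 scale, from 24.8 to 30.2 CPM to 11.6 to 16.7 CPM, while Adamts14 rose by 2.06 ± 0.23, from 1.29 to 2.96 CPM to 7.67 to 11.5 CPM. Both had separate groups, with adjusted p-values of 8.43e-05 and 4.16e-05 by edgeR. Adamts3, another protease of this family, had a mean count of 23 and was named after its values were seen. It fell by 2.74 ± 0.36, adjusted p = 0.000113 by edgeR, with separate groups. Pcolce2, an enhancer of carboxyl-terminal propeptide removal, fell by 1.15 ± 0.22. The export genes Mia3 and Sec23a were also lower, at -0.81 and -0.79.

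Of 19 genes of TGF-beta signalling, the pathway known for driving matrix expression in fibroblasts, 1 rose, 5 fell and 13 did not pass. Smad3, a signal transducer of the pathway, had 181, 140, 134 and 171 CPM in the control libraries, against 34.6, 32.7, 32.0 and 37.0 CPM in those labelled knockout. It fell by 2.2 ± 0.11 on the log2 scale, adjusted p = 3.17e-07 by edgeR. Smad6, an inhibitory Smad, fell by 1.32 ± 0.24. Ltbp2, a microfibril protein of the latent TGF-beta binding family, rose by 2.12 ± 0.51, adjusted p = 0.00487 by edgeR, but knockout-labelled library 3, at 2.6 CPM, lay within the control range of 1.15 to 3.02 CPM. It lost the call without control 1, 2 or 3 or knockout-labelled library 1 or 2. The ligand Tgfb3 fell by 0.82 ± 0.11, while Tgfb1 at 0.61 and Tgfb2 at 0.06 did not pass.

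Of 13 other matrix proteases and inhibitors, 2 rose and 3 fell. Mmp12, macrophage elastase, had no count in any control and 2.42, 2.29, 3.10 and 3.62 CPM in the knockout-labelled libraries. Against a floor of 3 counts per control library it was at least 11.8-fold higher. The median of the list was -0.48 with Mmp12 at its fitted value or at this bound. Mmp11 rose by 1.01 ± 0.24 and lost the call without control 1, 2 or 4 or knockout-labelled library 2 or 4. Mmp15, a membrane-type protease, fell by 1.43 ± 0.09, and Timp4 fell by 0.91 ± 0.14. The other gene that fell, Mmp9, had a mean count of 22.5, overlapping groups and a log2 fold change of -2.09. Beside Mmp12, the macrophage markers had 1 of 6 higher (Cd68), with the summed level at 39.6 to 96.5 CPM in the control libraries, against 73.2 to 131 CPM in those labelled knockout.

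Of 14 laminins, nidogens and basement membrane proteoglycans, 1 rose, 5 fell and 8 did not pass, with a median log2 fold change of -0.14 beside -1.07 for the type IV collagens. Lama2, the laminin chain of the muscle fibre basement membrane, had 35.6, 46.1, 44.6 and 55.0 CPM in the control libraries, against 22.9, 26.1, 32.4 and 24.96 CPM in those labelled knockout, and fell by 0.77 ± 0.14 on the log2 scale, adjusted p = 0.000977 by edgeR. Lamc3, another laminin chain, fell by 1.27 ± 0.27, and Lama3, with a mean count of 35, by 1.06 ± 0.23. Hspg2 (perlecan) and Nid1 (nidogen) also fell, at -0.68 and -0.74. Partner chains of Lama2 in muscle laminins did not pass, Lamc1 at -0.08, Lamb2 at 0.08 and Lamb1 at -0.53. The groups did not overlap for Lamb1, which had an adjusted p of 0.0203 by edgeR.

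Of 20 genes of other interstitial matrix, none rose and 7 fell, with 19 negative log2 fold changes and a median of -0.71. The smallest were those of Comp and Fmod, proteins of tendon and cartilage. Fmod had 48.1, 81.6, 314 and 177 CPM in the control libraries, against 25.2, 20.1, 35.7 and 33.3 CPM in those labelled knockout, and fell by 2.44 ± 0.50 on the log2 scale, adjusted p = 0.00211 by edgeR. Comp had 2.83, 7.33, 28.6 and 15.6 CPM against 2.04, 1.6, 3.10 and 2.62 CPM, and fell by 2.53 ± 0.58, adjusted p = 0.00383 by edgeR. Knockout-labelled library 3 lay above control 1, and the call was lost without knockout-labelled library 1, 2 or 4. For both genes controls 3 and 4 were highest, as for the tenocyte markers. Of 11 genes listed as collagen and fibronectin receptors, which include the laminin receptors Itga7 and Dag1, 2 rose and 1 fell. Itga7, the laminin receptor chain of muscle fibres, rose by 1.44 ± 0.08, from 103 to 111 CPM to 257 to 325 CPM, adjusted p = 5.57e-07 by edgeR. Itga5, the fibronectin receptor chain, rose by 1.34 ± 0.20, and Itga1, a collagen receptor chain that favours type IV collagen, fell by 1.03 ± 0.21. Their common partner Itgb1 was at 0.02 ± 0.07 and did not pass.

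**Figure D5:**
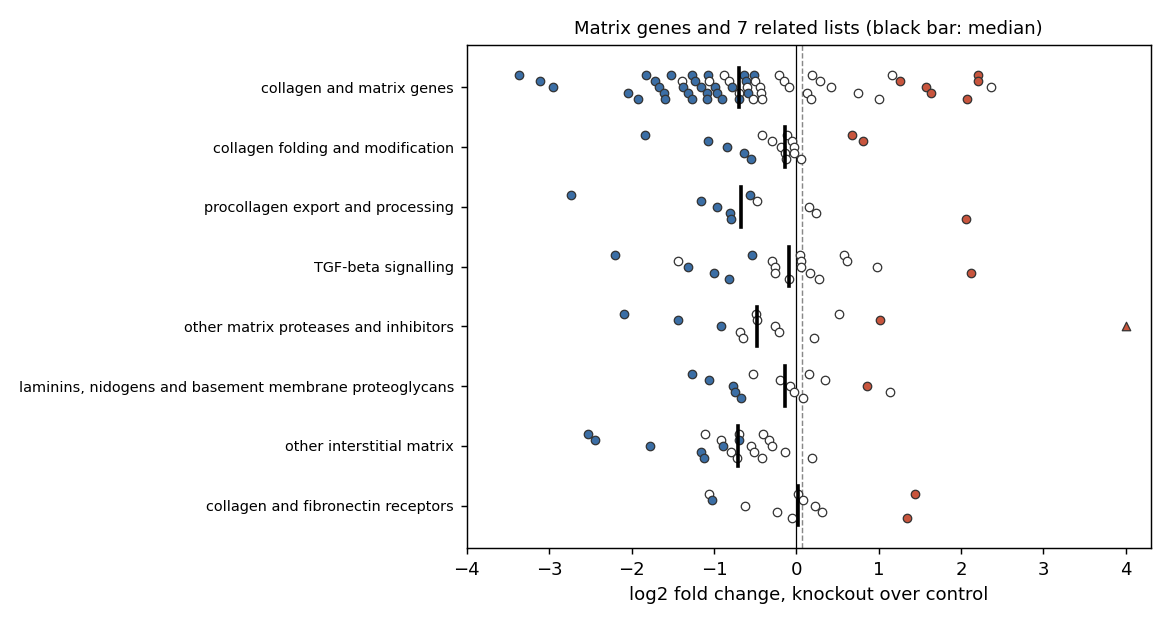
Log2 fold change of the 58 members and of the genes of 7 related lists, 1 point per gene, filled where the test was passed (blue lower, red higher), with a black bar at the median of each list and a dashed line at the median of all genes (0.07). Members, export genes and other interstitial matrix have medians of -0.69, -0.68 and -0.71, the folding genes and laminins lie near -0.14, and the triangle at the right edge marks Mmp12, which had no count in any control.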

How the data were processed

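Polyadenylated RNA of quadriceps femoris muscle was sequenced by the authors from 8 mice, 1 strand-specific library each. Per the labels and the study's methods, reads were demultiplexed with bcl2fastq 2.20.0.422, trimmed with cutadapt and aligned with STAR 2.5.4b to GRCm38, and the authors made raw counts per gene over exons with Rsubread, leaving out duplicate, chimeric, multimapping and poorly mapped pairs and genes with few reads in all (the lowest total in the table is 51). Strand use in counting is not given in the sources used here. Only 3 members overlap another listed gene (Col4a1, Col4a2 and Timp3), all on opposite strands. The deposited exon width is the number of exon bases per gene and was used for RPKM. The deposited FPKM values and the authors' DESeq2 columns (mean, fold change, standard error, p and adjusted p) were not used.

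The deposited counts were analysed in R 4.3.3 with the packages edgeR (4.0.16), limma (3.58.1) and, as an alternative, DESeq2 (1.42.0). All 14012 genes entered edgeR's quasi-likelihood test with TMM factors and the label as the only term, and calls were made at an adjusted p under 0.01. Standard errors are the log2 fold change divided by the square root of F. Log2 CPM used a prior count of 2. Single genes were compared by 2-sided exact permutation over 70 assignments. P-values measure the spread between mice. Totals of 16017565 to 20361144 counts make 3 counts equal to 0.119 to 0.242 CPM, which is the limit that a count of 0 allows at 95%, counting error only. Of the 58 members 55 passed edgeR's filterByExpr, and 4 other collagens of the lists (Col6a4, Col9a2, Col10a1, Col21a1) had no row in the table used here.

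The members and lists were chosen with earlier results of these data known. Values per library are given for the member of each group with the highest mean RPKM, the 5 largest and 5 smallest log2 fold changes among called members whose higher group averaged 50 counts or more, all fibrillar and type IV collagens that averaged as many over the 8 libraries, and for related lists the 2 largest and 2 smallest called genes with the same count minimum. Values of any other gene were chosen after they were seen. 1 gene that this rule names is not reported here. Same-numbered libraries come from different mice, and the correlations of their deviations from the group means were 0.118, 0.00314, 0.422 and 0.138, not all above 0.1, so no pairing was assumed. Alternatives covered scaling, abundant genes, filters, DESeq2, a robust fit, the threshold, the replicate block, thinning, marker covariates and each library left out. The procedure was tested on simulated data with few changed genes, balanced between higher and lower. That test does not cover the shift between scalings seen in these libraries. Promoter windows are from RefSeq.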

Additional observations from a re-analysis of the deposited data

Results flagged for a closer look

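Of 62 groups of 4 libraries examined for a library far from the others (each member given in full, and the difference between fibrillar and type IV collagens), 1 stood out by Dixon's criterion, which chance alone meets in about 1 of 20 groups. Col22a1 was at 23.3 CPM in control library 1, against 57.5 to 61.8 CPM in the other 3 controls. Without control 1 the log2 fold change of Col22a1 was -3.19, and with all libraries -2.96.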

How the results depend on the processing

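Of the 58 members, 58 kept their direction and their side of the threshold with RLE scaling, without the 20 most abundant genes and with libraries thinned to the smallest, 55 with upper-quartile scaling and all 55 tested with filterByExpr. DESeq2 called 6 members higher and 34 lower. With library totals alone 11 members were higher and 6 lower, 3 fibrillar and 1 type IV chain passed, and the medians were -0.031 for all members, -0.42 for fibrillar and -0.42 for type IV chains. Signs then changed for Bgn (0.15), Col11a2 (0.17), Col13a1 (0.59), Col18a1 (0.25), Col28a1 (0.44), Col4a5 (0.22), Col4a6 (0.22), Col6a6 (0.063), Col7a1 (0.077), Dcn (0.15), Mmp2 (0.032), Postn (0.52) and Timp2 (0.062), the shift of the median of all genes being part of that alternative. At an adjusted p under 0.05, 5 type IV chains passed. Over all genes library totals gave 8498 higher and 873 lower calls, beside 3303 and 2962 as reported. The difference between fibrillar and type IV chains stayed between -0.18 and 0.17 in the settings run for it, the marker covariates not among them. With the adipocyte markers as a covariate 46 members kept their direction and side of the threshold, 10 lost the call and 1 gained it. Loxl1 changed sign, at -0.082. That fit called 4 members higher and 22 lower, and over all genes 2677 and 2509. The adipocyte markers summed to 300, 192, 9.52 and 291 CPM in the controls, against 580, 369, 132 and 330 CPM. In the robust fit 53 members stayed and 5 lost the call, with 5 higher and 25 lower.

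The alternatives chosen after seeing the data made fewer calls. Over all genes there were 1555 higher and 1688 lower with the tenocyte, 1144 and 1479 with the fibroblast and 299 and 631 with the endothelial markers. With the tenocyte markers as a covariate 8 members fell, 2 fibrillar and 1 type IV chain passed, the medians were -0.24, -0.46 and -0.75, and Bgn (0.030), Col11a2 (0.84), Col12a1 (0.060), Col13a1 (0.15), Col2a1 (1.05) and Tnc (0.49) changed sign. Without controls 3 and 4, 15 members fell, 5 fibrillar chains passed, and Col11a2 (0.40), Col13a1 (0.016) and Col2a1 (0.99) changed sign. Over all genes that omission gave 2213 higher and 2269 lower calls. With the fibroblast markers 5 members fell, 2 fibrillar and 1 type IV chain passed. The medians were then -0.50 for all members, -0.81 for fibrillar and -1.31 for type IV chains. With the endothelial markers 0 members rose and 0 fell, 0 fibrillar and 0 type IV chains passed, and the medians were 0.15 for all members, -0.10 for fibrillar and -0.16 for type IV chains. These 2 marker means do not overlap between the groups, so in these fits the markers and the group label cannot be told apart. The tenocyte mean was -0.10, 0.80, 1.72 and 1.55 log2 RPKM in the controls, against -0.56, 0.078, -0.51 and -0.11 in the knockout-labelled libraries. It overlapped only through control 1, so the tenocyte fit tells marker and label apart only in part. The cause of the changes under these alternatives was not tested.

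Leaving out 1 library at a time gave 4 to 7 members higher and 20 to 31 lower, 7 to 8 fibrillar and 3 to 4 type IV chains past the threshold, and medians of -0.88 to -0.54, -1.17 to -0.90 and -1.20 to -0.98. Signs changed for Col28a1 (-0.42 to 0.17), Col2a1 (-1.09 to 0.025), Mmp14 (-0.0098 to 0.26) and Postn (-0.45 to 0.069). With the replicate number as a block, 5 members rose and 28 fell, 7 fibrillar and 3 type IV chains passed, Col12a1, Col24a1 and Col27a1 lost the call (adjusted p of 0.0125, 0.0165 and 0.0117 by edgeR) and Bgn gained it (0.00625). No pairing was assumed, although 6 of 8 libraries were closest to their own number, a hint from the data and not from the design. The calls in the related lists ran from 6 to 9 (folding, 7 as reported), 3 to 8 (export, 7), 4 to 11 (TGF-beta, 6), 3 to 6 (proteases, 5), 4 to 9 (laminins, 6), 3 to 12 (interstitial, 7) and 3 to 7 (receptors, 3) under the alternatives other than those chosen after seeing the data. Under the alternatives chosen after seeing the data they ran from 1 to 4, 2 to 6, 1 to 4, 0 to 5, 0 to 1, 0 to 3 and 1 to 2 in the same order.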
